A study of Mus musculus with 6 samples.

Results

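The 3 MEF2 transcription factors *Mef2a*, *Mef2c* and *Mef2d* and the 4 class IIa histone deacetylases *Hdac4*, *Hdac5*, *Hdac7* and *Hdac9* were followed in gastrocnemius (GAS) muscle, the large calf muscle, of mice without the potassium channel subunit Kvβ2. They were chosen by gene symbol, and the 7 symbols matched 8 of the 37979 entries of the expression table, since *Hdac4* is listed under ENSMUSG00000026313 and again under ENSMUSG00000073617. The muscles came from 3 wildtype (WT) and 3 Kvβ2 knockout (KO) mice, 20 weeks of age and untreated males, with 1 library of poly(A) RNA per mouse. The KO is a germline deletion in the whole body, bred from heterozygous parents, so nerve, vessels and every other cell of the muscle lacked Kvβ2 as well as the fibers. Mice and their libraries are numbered 1, 7 and 8 in each genotype. The values are FPKM (fragments per kilobase of a transcript and per unit of library depth), which take gene length into account. Levels of different genes are set side by side on that basis only.

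MEF2 proteins bind A/T-rich sites in the promoters of muscle genes through a MADS box at their amino-terminal end, and drive genes of contraction, of the oxidative program and of the response to nerve activity. Class IIa deacetylases bind MEF2 and hold its target genes silent, largely by bringing in corepressors with HDAC3. When CaMK, PKD, AMPK or SIK family kinases phosphorylate them, 14-3-3 proteins carry the deacetylases out of the nucleus, while HDAC4 and HDAC5 are also known for their part in the response of muscle to denervation.

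The coding sequences of the members differ in base composition. The first 30 codons, where the MADS box begins, are printed 5′ to 3′ from GENCODE vM21 (GRCm38), with G or C at the last position of a codon in capitals.
Mef2a: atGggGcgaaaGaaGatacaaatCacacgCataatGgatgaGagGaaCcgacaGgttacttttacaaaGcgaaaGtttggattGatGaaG
Mef2c: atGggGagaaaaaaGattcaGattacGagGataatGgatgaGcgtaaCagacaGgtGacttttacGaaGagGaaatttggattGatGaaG
Mef2d: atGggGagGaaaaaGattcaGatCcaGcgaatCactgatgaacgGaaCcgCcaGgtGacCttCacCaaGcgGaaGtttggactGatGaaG

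Of these 90 bases, 74 are the same in *Mef2a* and *Mef2c*, 69 in *Mef2a* and *Mef2d* and 71 in *Mef2c* and *Mef2d*. G or C stands at 16 of the 30 last positions in *Mef2a*, 17 in *Mef2c* and 22 in *Mef2d*. The window begins at base 67316845 of chromosome 7 on the minus strand for *Mef2a*, at 83575677 of chromosome 13 on the plus strand for *Mef2c* and at 88155809 of chromosome 3 on the plus strand for *Mef2d*. Over the whole coding sequence, last positions of codons were G or C in 48.6% of cases in *Mef2a*, 54.2% in *Mef2c* and 65.8% in *Mef2d*. By this measure *Mef2d* thus lies above *Mef2a* and *Mef2c*.

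The class IIa deacetylases are printed over a shared stretch at the start of the catalytic domain, marked in the same way. It covers codons 659 to 688 of *Hdac4*, 684 to 713 of *Hdac5*, 515 to 544 of *Hdac7* and 639 to 668 of *Hdac9*.
Hdac4: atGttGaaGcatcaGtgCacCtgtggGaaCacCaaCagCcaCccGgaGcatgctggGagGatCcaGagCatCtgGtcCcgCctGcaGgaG
Hdac5: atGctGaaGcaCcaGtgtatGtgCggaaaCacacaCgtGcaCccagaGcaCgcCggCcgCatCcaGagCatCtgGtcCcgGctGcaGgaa
Hdac7: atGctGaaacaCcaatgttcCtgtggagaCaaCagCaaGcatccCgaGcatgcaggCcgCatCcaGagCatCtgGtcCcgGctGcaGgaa
Hdac9: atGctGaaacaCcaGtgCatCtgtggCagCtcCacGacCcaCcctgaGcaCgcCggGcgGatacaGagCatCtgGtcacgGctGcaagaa

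Between 70 and 71 of these 90 bases in the other class IIa genes are those of *Hdac4*. Over the whole coding sequence, last positions of codons were G or C in 66.9% of cases in *Hdac4*, 72.7% in *Hdac5*, 66.1% in *Hdac7* and 52.6% in *Hdac9*, so *Hdac9* is the least G/C-rich of the class by this measure and *Hdac5* the most. GC content over the annotated transcripts, untranslated parts included and weighted by length, was 42.7% for *Mef2a* and for *Mef2c*, 57.0% for *Mef2d*, 52.6% for *Hdac4* (ENSMUSG00000026313), 60.04% for *Hdac5*, 59.7% for *Hdac7* and 47.4% for *Hdac9*. The median of tested genes was 50.1%. ENSMUSG00000073617 is not in this annotation and has no GC content, position or sequence here.

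Whether MEF2 could bind at the members' own start sites was looked at only as a match of letters. The MEF2 consensus, a palindrome of 10 bases read on both strands, was in a RefSeq promoter (GRCm38.p6, 300 bases around the start) of *Mef2a* and *Hdac5*, and in none of the listed promoters of the other members. It is in 3.2% of 32851 such promoters, a share per promoter and not per gene. *Hdac7*, *Hdac9* and *Mef2c* are listed with more than a single promoter. The windows that hold it, chr7:67372851-67372958 for *Mef2a* and chr11:102230173-102230272 for *Hdac5*, are printed on the minus strand from 100 bases before the start, with the match in capitals.
Mef2a: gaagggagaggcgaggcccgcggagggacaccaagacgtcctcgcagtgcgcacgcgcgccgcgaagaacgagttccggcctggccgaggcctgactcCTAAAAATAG
Hdac5: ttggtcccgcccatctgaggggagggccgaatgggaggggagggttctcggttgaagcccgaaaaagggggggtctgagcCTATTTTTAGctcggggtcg

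A match is a description and not a bound site. In *Mef2a* it lies from 2 bases before to base 8 of the transcript, and in *Hdac5* from 20 to 11 bases before the start. Both genes separated the genotypes in the deposited values, in opposite directions, and neither did after correction for GC content, as given below. *Mef2d* and *Hdac4* (ENSMUSG00000026313), which have no match, also separated the genotypes as deposited. A relation between the match and the levels was not tested.

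The targeted gene *Kcnab2*, which encodes Kvβ2, was at 0.233 FPKM or less, and above 0, in the WT libraries, and in the KO libraries it was listed at 0 in replicates 1 and 8 and was at 0.0151 FPKM in replicate 7. The table holds no counts. By the steps of whole fragments in low FPKM values, the libraries held about 14900000 to 21680000 fragments, and each KO library fewer than each WT library. The lowest value of any member, 1.17 FPKM for *Hdac9* in KO replicate 1, then rests on about 17.4 fragments per kilobase, and *Mef2c* on at least 1221 per kilobase in every library. Of 13 markers of skeletal muscle fibers, 10 were measured, with *Acta1* at 5029 FPKM or more in each library, while *Myh4*, *Atp2a1* and *Tnnt3* were listed at 0 in all 6 libraries. Across tested genes the KO minus WT difference went with GC content (Spearman's rho 0.70, across genes, which are not independent replicates), from a median log2 difference of -0.41 under 40% GC to 0.68 at 60% and above. Differences of the members with a known GC content are therefore given as deposited and after the trend was taken out of each library. That correction brought rho to 0.01. For other genes the corrected value is given for some only.

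No member had an adjusted p under 0.05 in the comparison of KO with WT, and the 8 entries split into higher, lower and overlapping. *Mef2d*, *Hdac5* and *Hdac4* (ENSMUSG00000026313) were higher in all 3 KO than in all 3 WT libraries, *Mef2a* was lower, and *Mef2c*, *Hdac7*, *Hdac9* and *Hdac4* (ENSMUSG00000073617) overlapped. After correction for GC content, 0 of the 7 entries with a GC content separated the genotypes. Fold changes and p-values are from limma on log2(FPKM + 0.1), a scale that understates the change of low genes, with Benjamini-Hochberg adjustment over 12334 tested genes, and SE stands for standard error. At an adjusted p under 0.05, 0 of 8 member entries were called, against 0.324% of tested genes. At an unadjusted p under 0.05, 3 of 8 entries (*Mef2a*, *Mef2d* and *Hdac5*) stood against 26.2% of tested genes. Non-overlapping entries were 3 of 8 with KO higher, against 18.3% of tested genes, and 1 of 8 with KO lower, against 16.2%. After the correction, 0 of 7 entries had an adjusted p under 0.05 (0.117% of 11985 genes) and 0 of 7 an unadjusted p under 0.05 (11.2%), and the shares of all these genes that did not overlap were 8.97% with KO higher and 9.54% with KO lower. The median log2 fold change over the 8 entries was 0.19, beside 0.01 over all tested genes, and 0.079 beside 0.0012 after the correction. With limma's array weights, which called 3147 of all tested genes, *Mef2a*, *Mef2d* and *Hdac5* had adjusted p-values of 0.0281, 0.0403 and 0.0128. In a 3 against 3 comparison an exact permutation test cannot give a p under 0.1. The p-values measure the spread between these mice. In a whole muscle, fewer cells of a type and less RNA per cell cannot be told apart.

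**Figure D1:**
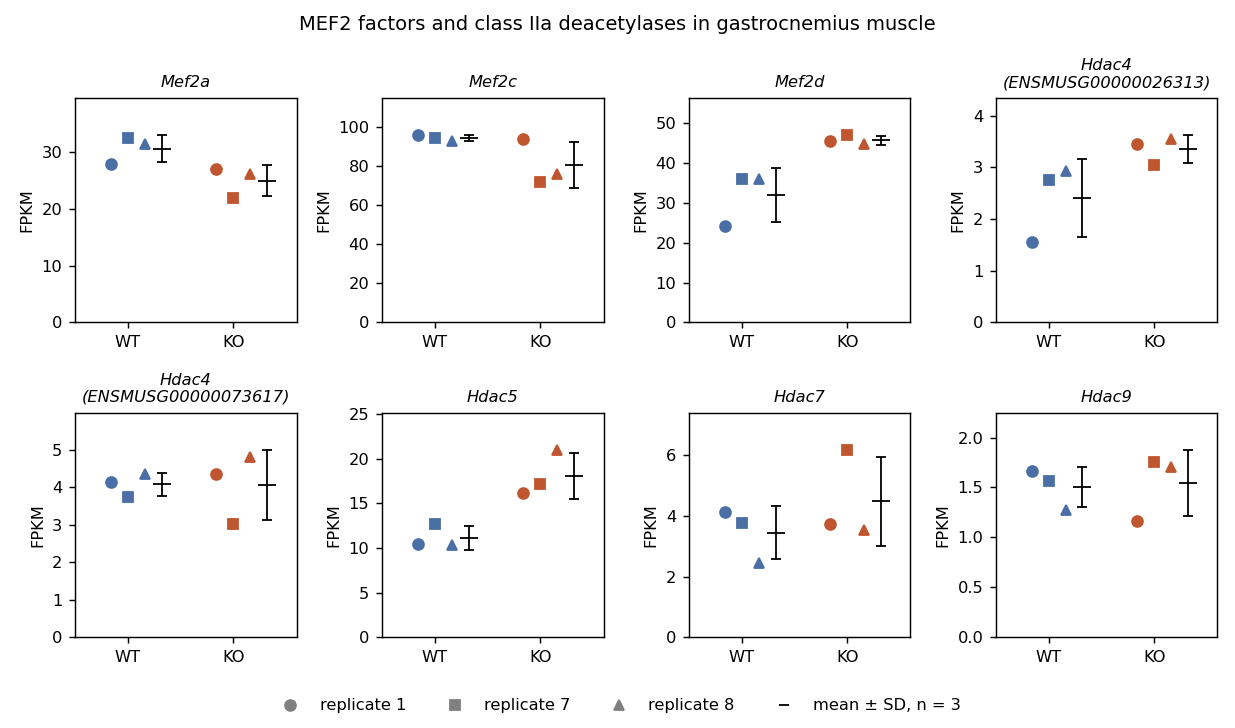
FPKM of each member (linear axis from 0, 1 panel per table entry) in the 3 WT (blue) and 3 KO (orange) libraries, with replicates by symbol and mean ± SD (n = 3) in black. The KO points lie above all WT points for *Mef2d*, *Hdac5* and *Hdac4* (ENSMUSG00000026313) and below them for *Mef2a*, and overlap them in the other panels.

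Among the transcription factors, *Mef2c* had the highest level. *Mef2c* (ENSMUSG00000005583, GRCm38 chromosome 13, 83504034 to 83667080, plus strand), a MEF2 factor required for the sarcomeres of skeletal muscle, was at 95.5, 94.0 and 92.8 FPKM in WT mice 1, 7 and 8, against 93.8, 71.9 and 75.7 FPKM in KO mice 1, 7 and 8. The WT libraries lay close together, KO replicates 7 and 8 were lower, and KO replicate 1 lay within the WT range. The log2 fold change was -0.24 (SE 0.12, adjusted p = 0.263), and it was 0.049 (SE 0.10, adjusted p = 0.880) after correction for GC content, a change of sign. On corrected values KO replicate 1 was the highest library, at 99.4 FPKM, and the WT libraries were at 82.4 to 86.6 FPKM.

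*Mef2a* (ENSMUSG00000030557, chromosome 7, 67231163 to 67372858, minus strand), which is expressed in many tissues and acts in muscle regeneration, was at 27.9, 32.4 and 31.4 FPKM in WT mice 1, 7 and 8, against 27.1, 21.8 and 26.1 FPKM in KO mice 1, 7 and 8. The genotypes did not overlap, but KO replicate 1 and WT replicate 1 nearly met. The log2 fold change was -0.29 (SE 0.12, adjusted p = 0.187), from 30.6 ± 2.39 to 24.99 ± 2.77 FPKM (SD, n = 3). After the correction it was -0.0080 (SE 0.11, adjusted p = 0.985), with a 95% confidence interval of -0.27 to 0.25. *Mef2a* and *Mef2c* have the same GC content, and their log2 fold changes were within a standard error of each other.

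*Mef2d* (ENSMUSG00000001419, chromosome 3, 88142372 to 88172086, plus strand), which carries a muscle isoform that gene-level FPKM do not resolve, was on the other side. It was at 24.1, 35.9 and 36.0 FPKM in WT mice 1, 7 and 8, against 45.6, 47.0 and 44.7 FPKM in KO mice 1, 7 and 8. The KO libraries lay close together above all WT libraries, and WT replicate 1 lay far below the other WT libraries. The log2 fold change was 0.54 (SE 0.17, adjusted p = 0.110) and 0.35 without WT replicate 1. After correction for GC content it was 0.0995 (SE 0.11, adjusted p = 0.753), with a 95% confidence interval of -0.16 to 0.36, and the libraries overlapped at 31.6 to 40.1 FPKM in WT and 38.1 to 40.6 FPKM in KO muscle. The fourth family member, *Mef2b*, was at 0.288 FPKM or less in each library, listed at 0 in WT replicate 1 and KO replicate 8, too low to be tested.

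The order of the MEF2 factors by level was *Mef2c* first in every library. *Mef2d* and *Mef2a* did not differ beyond their spread in WT muscle, at 24.1 to 36.0 and 27.9 to 32.4 FPKM, and in KO muscle *Mef2d* lay above *Mef2a* in each library, at 44.7 to 47.0 against 21.8 to 27.1 FPKM. The ratio of *Mef2d* to *Mef2a* within a library was 0.864, 1.11 and 1.145 in WT replicates 1, 7 and 8 and 1.69, 2.15 and 1.72 in KO replicates 1, 7 and 8. These groups do not overlap. On corrected values the ratio was 1.31 to 1.34 in WT and 1.38 to 1.48 in KO muscle. The correction leaves the mean of each gene over all 6 libraries, WT and KO together, nearly unchanged. A corrected ratio thus does not show which gene is higher in WT muscle. The groups of corrected ratios still did not meet, while the mean KO minus WT difference of the log2 ratio went from 0.84 to 0.11. Of all single genes with corrected values, 8.97% did not overlap with KO higher and 9.54% with KO lower. The corrected ratio of *Mef2d* to *Mef2c* overlapped, at 0.384 to 0.463 in WT and 0.408 to 0.477 in KO muscle. *Mef2c* made up 57.9% to 64.8% of the summed MEF2 FPKM in WT and 51.1% to 56.3% in KO muscle, and *Mef2d* 16.3% to 22.5% and 27.4% to 33.4%. The sum itself overlapped, at 147 to 162 FPKM in WT and 141 to 167 FPKM in KO muscle. On corrected values the shares of *Mef2c* and *Mef2d* overlapped as well.

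Of the deacetylases, *Hdac5* had the highest level and the largest difference. *Hdac5* (ENSMUSG00000008855, chromosome 11, 102194432 to 102230166, minus strand) encodes a class IIa enzyme that shuttles with calcium and AMPK signals, and the study picked this gene out on these same samples, so it is not independent evidence of a direction. It was at 10.4, 12.7 and 10.3 FPKM in WT mice 1, 7 and 8, against 16.1, 17.2 and 21.0 FPKM in KO mice 1, 7 and 8. All KO libraries were above all WT libraries, by a wider gap than for any other member on the log2 scale. The log2 fold change was 0.69 (SE 0.14, unadjusted p = 0.00165 by limma, adjusted p = 0.0708). On corrected values it was at 14.9, 15.2 and 11.3 FPKM in WT mice 1, 7 and 8, against 13.7, 12.7 and 17.4 FPKM in KO mice 1, 7 and 8, so the genotypes overlapped, with an adjusted p of 0.883 by limma and a 95% confidence interval of -0.31 to 0.46 for the log2 fold change. *Hdac5* has the highest GC content of the members.

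*Hdac4* was split over its entries, whose values differed. ENSMUSG00000026313 (chromosome 1, 91928779 to 92195699, minus strand), the enzyme best known from denervated muscle, was at 1.55, 2.75 and 2.93 FPKM in WT mice 1, 7 and 8, against 3.46, 3.05 and 3.55 FPKM in KO mice 1, 7 and 8. The genotypes did not overlap, and WT replicate 1 was again the lowest library. Its log2 fold change was 0.51 (SE 0.24, adjusted p = 0.226), and 0.23 without WT replicate 1. Of the entries that did not overlap it kept the most after correction for GC content, at 0.37 (SE 0.21, adjusted p = 0.558), with libraries at 1.73 to 2.95 FPKM in WT and 2.88 to 3.34 FPKM in KO muscle, which overlapped. ENSMUSG00000073617 was at 4.14, 3.74 and 4.35 FPKM in WT mice 1, 7 and 8, against 4.36, 3.02 and 4.80 FPKM in KO mice 1, 7 and 8. There the KO libraries lay on both sides of the WT libraries, with a log2 fold change of -0.030 (SE 0.19, adjusted p = 0.934). How fragments were shared between the entries is not known, so the total of *Hdac4* is uncertain.

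*Hdac7* (ENSMUSG00000022475, chromosome 15, 97792664 to 97844502), a class IIa enzyme known from endothelium and thymocytes, was at 4.13, 3.77 and 2.45 FPKM in WT mice 1, 7 and 8, against 3.72, 6.16 and 3.54 FPKM in KO mice 1, 7 and 8. KO replicate 7 alone lay above the WT libraries. The log2 fold change was 0.35 (SE 0.27, adjusted p = 0.429), 0.10 without KO replicate 7 and 0.13 without WT replicate 8, and it turned to -0.24 (SE 0.30, adjusted p = 0.787) after the correction. *Hdac9* (ENSMUSG00000004698, chromosome 12, 34047580 to 34917095), whose short form lacks the catalytic domain and represses MEF2 in muscle, was at 1.67, 1.57 and 1.27 FPKM in WT mice 1, 7 and 8, against 1.17, 1.76 and 1.71 FPKM in KO mice 1, 7 and 8. Its genotypes overlapped fully, with a log2 fold change of 0.024 (SE 0.22, adjusted p = 0.954) and a 95% confidence interval of -0.48 to 0.53, so a difference of that size in either direction was not detectable with these libraries.

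In WT muscle *Hdac5* stood above the other class IIa entries, and below it the neighbours in the order overlapped. *Hdac4* (ENSMUSG00000073617) was at 3.74 to 4.35 FPKM, *Hdac7* at 2.45 to 4.13, *Hdac4* (ENSMUSG00000026313) at 1.55 to 2.93 and *Hdac9* at 1.27 to 1.67 FPKM. In KO muscle *Hdac9* lay below each of the others, and *Hdac7* and both *Hdac4* entries overlapped. The summed class IIa FPKM was 21.9, 24.5 and 21.3 in WT replicates 1, 7 and 8 and 28.8, 31.2 and 34.6 in KO replicates 1, 7 and 8, with *Hdac5* making up 47.5% to 51.8% and 55.1% to 60.6%. The ratio of this sum to the MEF2 sum was 0.148, 0.151 and 0.133 in WT and 0.173, 0.222 and 0.236 in KO replicates 1, 7 and 8, which do not overlap, with a mean difference of 0.53 on the log2 scale. On corrected values it was 0.146 to 0.204 in WT and 0.152 to 0.204 in KO muscle, with a difference of -0.0039. In those, ENSMUSG00000073617 was left at its deposited value. A ratio within a library shows unequal levels and not which side differs.

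**Figure D2:**
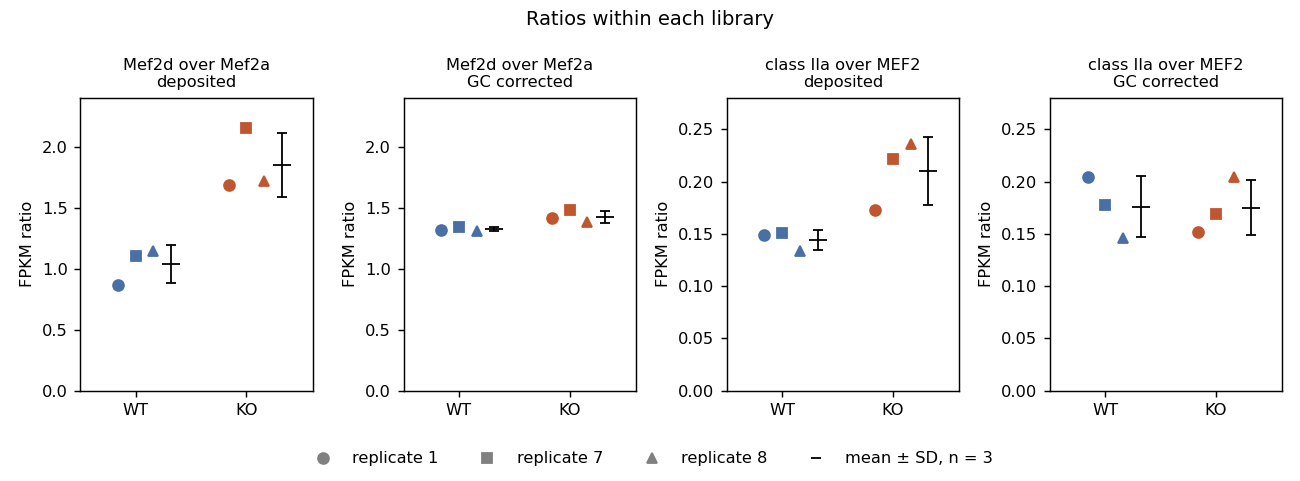
FPKM ratio of *Mef2d* to *Mef2a* and of the summed class IIa deacetylases to the summed MEF2 factors (linear axes from 0) in each WT (blue) and KO (orange) library, as deposited and after correction for GC content, with mean ± SD (n = 3) in black. Both ratios are higher in all KO libraries as deposited. After the correction the first is 1.31 to 1.34 in WT and 1.38 to 1.48 in KO, and the second overlaps. Of all single genes with corrected values, 8.97% did not overlap with KO higher and 9.54% with KO lower.

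The members lay along the trend of all genes with GC content. *Mef2a* and *Mef2c*, at 42.7% GC, had log2 fold changes of -0.29 and -0.24, beside a median of -0.30 for the 1607 tested genes of 40% to 44% GC. *Mef2d*, *Hdac7* and *Hdac5*, at 57.0% to 60.04% GC, had log2 fold changes of 0.54, 0.35 and 0.69, beside medians of 0.51 for genes of 56% to 60% GC and 0.68 for those of 60% and above. *Hdac9*, at 47.4%, was at 0.024 beside -0.17 for genes of 44% to 48% GC. *Hdac4* (ENSMUSG00000026313), at 52.6% and 0.51, lay farthest above its class, which had a median of 0.24. What gives rise to the trend was not tested. The depth of the libraries also differed between the genotypes and cannot be told apart from genotype here.

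**Figure D3:**
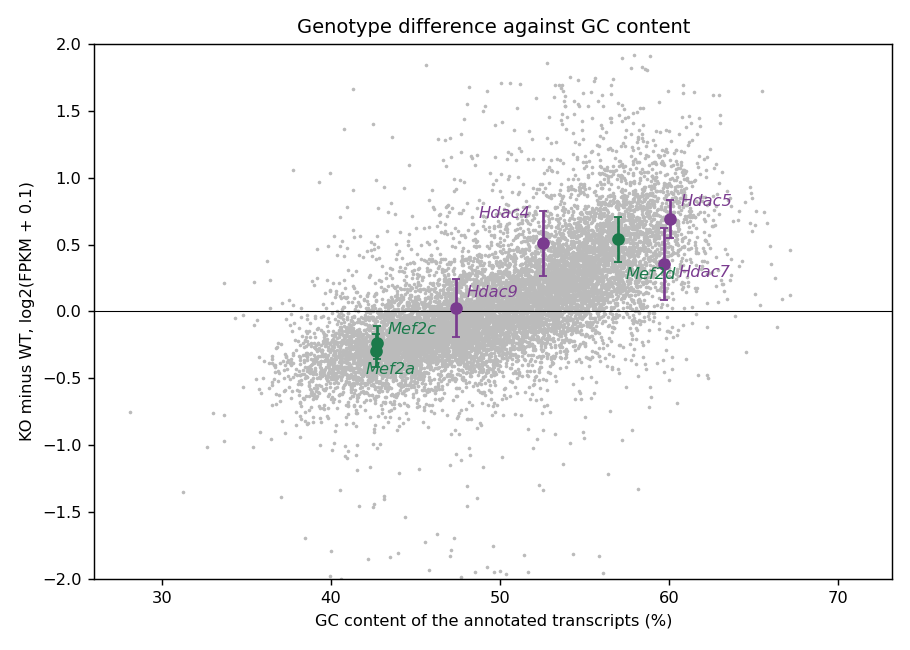
KO minus WT difference of log2(FPKM + 0.1) against the GC content of a gene's annotated transcripts, for 11985 tested genes (grey, of which 146 lie beyond the axis at 2 in either direction) and for the members with a known GC content (MEF2 factors green, deacetylases purple, bars ± 1 standard error). *Mef2a* and *Mef2c* sit at the low and *Mef2d*, *Hdac5* and *Hdac7* at the high end of the rising cloud.

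**Figure D4:**
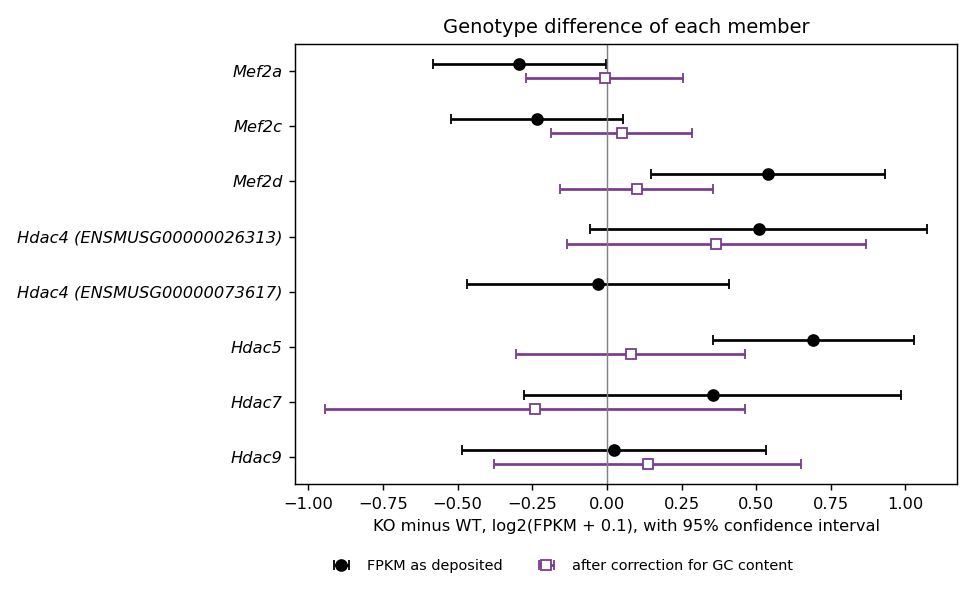
KO minus WT log2 fold change of each entry with its 95% confidence interval from limma, as deposited (black circles) and after correction for GC content (open purple squares, 7 entries). As deposited, the intervals of *Mef2a*, *Mef2d* and *Hdac5* leave out 0, and after the correction all 7 intervals include it.

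Summed marker levels of fibers and of other cell types of the muscle also differed between libraries. The summed FPKM of the fiber markers, of which 10 of 13 had values above 0, was 39796 to 56529 in WT and 55509 to 62319 in KO muscle. It was lowest in WT replicate 1, the library with the least *Mef2d* and *Hdac4* (ENSMUSG00000026313). The 8 endothelial markers, all measured, summed to 66.0 to 92.1 FPKM in WT and 80.1 to 93.8 FPKM in KO muscle, and were lowest in WT replicate 8, the library with the least *Hdac7*, and highest in KO replicate 7, the one with the most. Markers of smooth muscle and pericytes (6 genes) were at 70.8 to 99.0 and 74.7 to 100.1 FPKM, those of fibroblasts (6 genes) at 404 to 599 and 389 to 552 FPKM, those of macrophages (5 of 6 genes in the table) at 6.10 to 19.6 and 13.5 to 30.9 FPKM and those of adipocytes (5 genes) at 225 to 426 and 274 to 529 FPKM in WT and KO muscle. The 6 markers of Schwann cells and nerve were at 12.9 to 61.4 FPKM in WT and 14.1 to 85.6 FPKM in KO muscle, with *Nefl* listed at 0 in every library. The ranges of these sums overlapped between the genotypes, but a sum rests mainly on its most abundant genes, such as *Fabp4* at 217 to 450.4 FPKM among the adipocyte markers, and single markers differed more. All 5 adipocyte markers had a positive log2 fold change, with a median of 1.65 (1.69 after the correction for GC content), and *Plin1* (2.79) and *Cidec* (2.24) were higher in all KO libraries. Of the 5 tested markers of smooth muscle and pericytes, 4 were higher and 1 lower in all KO libraries, with a median of 0.57 (0.38 after the correction). Of the 10 tested fiber markers, 4 were higher in all KO libraries, with a median of 0.73 (0.41 after the correction), and of the 8 endothelial markers 2 were, with a median of 0.13 (0.10). The 5 macrophage markers all had positive log2 fold changes, with a median of 0.71 (0.51 after the correction), and overlapped, as did those of fibroblasts (median 0.052, and 0.30 after the correction) and of Schwann cells and nerve (0.089 and 0.018). By limma, 0 of these markers had an adjusted p under 0.05. An unadjusted p under 0.05 was found for 4 fiber, 3 endothelial, 3 smooth muscle and pericyte and 3 adipocyte markers. It was found for 1 fibroblast, 0 macrophage and 0 nerve markers, beside 26.2% of all tested genes. After the correction it was found for 2 fiber, 2 smooth muscle and pericyte and 3 adipocyte markers, beside 11.2% of all genes. Each other marker list then had 0. Of all tested genes, 18.3% did not overlap with KO higher and 16.2% with KO lower. Of the fiber markers *Myh4*, *Atp2a1* and *Tnnt3* were listed at 0, and of the other lists only *Nefl*. Whether these zeros are levels or gaps in the quantification was not tested. The part of these cells in the members' values was not tested.

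The other deacetylases had members on both sides. Of 7 genes of class I, IIb and IV, 0 had an adjusted p under 0.05, 2 did not overlap with KO higher and 1 with KO lower, and the median log2 fold change was 0.16, and -0.082 once GC content was corrected for. At an unadjusted p under 0.05 by limma there were 3 of 7, beside 26.2% of all tested genes. After the correction there was 1 of 7, beside 11.2%. Of all tested genes, 18.3% did not overlap with KO higher and 16.2% with KO lower. *Hdac1*, a class I enzyme, had a log2 fold change of 0.35 (SE 0.13, adjusted p = 0.158), and *Hdac10*, of class IIb, had 0.33 (SE 0.14, adjusted p = 0.190). After the correction *Hdac1* was at 0.29 and *Hdac10* at -0.082. *Hdac2*, the close relative of *Hdac1*, had -0.41 (SE 0.16, adjusted p = 0.164), with 33.5 to 46.0 FPKM in WT and 24.1 to 31.6 FPKM in KO muscle. *Hdac3*, the catalytic partner that class IIa enzymes recruit, was at 38.5 to 47.4 FPKM in WT and 29.3 to 43.5 FPKM in KO muscle, overlapping, with -0.24 (SE 0.17, adjusted p = 0.406). After the correction *Hdac2* was at -0.11 and *Hdac3* at -0.18. The class I enzymes *Hdac2* and *Hdac3* were thus at higher FPKM than any class IIa entry in every library.

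Among 7 genes of the corepressor complexes, 2 did not overlap with KO higher and 2 with KO lower, beside 18.3% and 16.2% of all tested genes. By limma 0 were called, and 4 had an unadjusted p under 0.05, beside 26.2% of all tested genes. After correction for GC content 0 of the 7 did, beside 11.2% of all genes. *Gps2*, a subunit of the complexes that hold HDAC3, was at 20.6, 21.3 and 20.8 FPKM in WT mice 1, 7 and 8, against 30.2, 28.8 and 31.2 FPKM in KO mice 1, 7 and 8. Its log2 fold change was 0.52 (SE 0.094, adjusted p = 0.0667), and 0.16 (SE 0.10, adjusted p = 0.604) once GC content was corrected for. *Ctbp1*, a corepressor of the CtBP family, had 0.41 (SE 0.11, adjusted p = 0.0887) and -0.017 after the correction, a change of sign. The subunits *Tbl1xr1* (-0.48, adjusted p = 0.104) and *Tbl1x* (-0.38, adjusted p = 0.105) were lower in all KO libraries, and were at -0.20 and -0.19 after the correction. *Ncor1* was at 35.6 to 38.8 FPKM in WT and 36.8 to 40.4 FPKM in KO muscle. The median of the list was 0.072 as deposited and -0.18 after the correction.

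Of 16 kinases that phosphorylate class IIa deacetylases, 14 were tested and 0 called, 5 did not overlap with KO higher and 2 with KO lower, and the median log2 fold change was 0.22, and 0.10 once GC content was corrected for. At an unadjusted p under 0.05 by limma there were 7 of 14, beside 26.2% of all tested genes. After the correction there was 1 of 14, beside 11.2%. Of all tested genes, 18.3% did not overlap with KO higher and 16.2% with KO lower. *Sik1*, a salt-inducible kinase, was at 1.57, 1.25 and 1.65 FPKM in WT mice 1, 7 and 8, against 3.19, 2.26 and 6.33 FPKM in KO mice 1, 7 and 8, a log2 fold change of 1.22 (SE 0.35, adjusted p = 0.0983), and of 0.81 (SE 0.37, adjusted p = 0.467) after the correction. *Prkd2*, a protein kinase D, had 0.63 (SE 0.26, adjusted p = 0.176) and 0.20 after the correction. The catalytic subunits of AMPK were lower in all KO libraries, *Prkaa2* with -0.44 (SE 0.14, adjusted p = 0.118) and *Prkaa1* with -0.37 (SE 0.13, adjusted p = 0.134), and were at -0.095 and -0.013 after the correction. Their GC contents are 40.7% and 40.1%. *Camk4* and *Camk1d* were under the filter.

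None of the 6 tested 14-3-3 genes separated the genotypes, beside 18.3% of all tested genes with KO higher and 16.2% with KO lower. Their median log2 fold change was -0.11, and -0.030 after the correction for GC content. Values ran from -0.23 for *Ywhaq* and -0.18 for *Ywhae* to -0.096 for *Ywhab* and 0.20 for *Ywhag*. By limma 0 were called (0.324% of all tested genes) and 0 had an unadjusted p under 0.05 (26.2%). So few genes cannot show that the list did not differ. *Ywhae* was the most abundant, at 206 to 233 FPKM in WT and 171 to 222 FPKM in KO muscle.

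**Figure D5:**
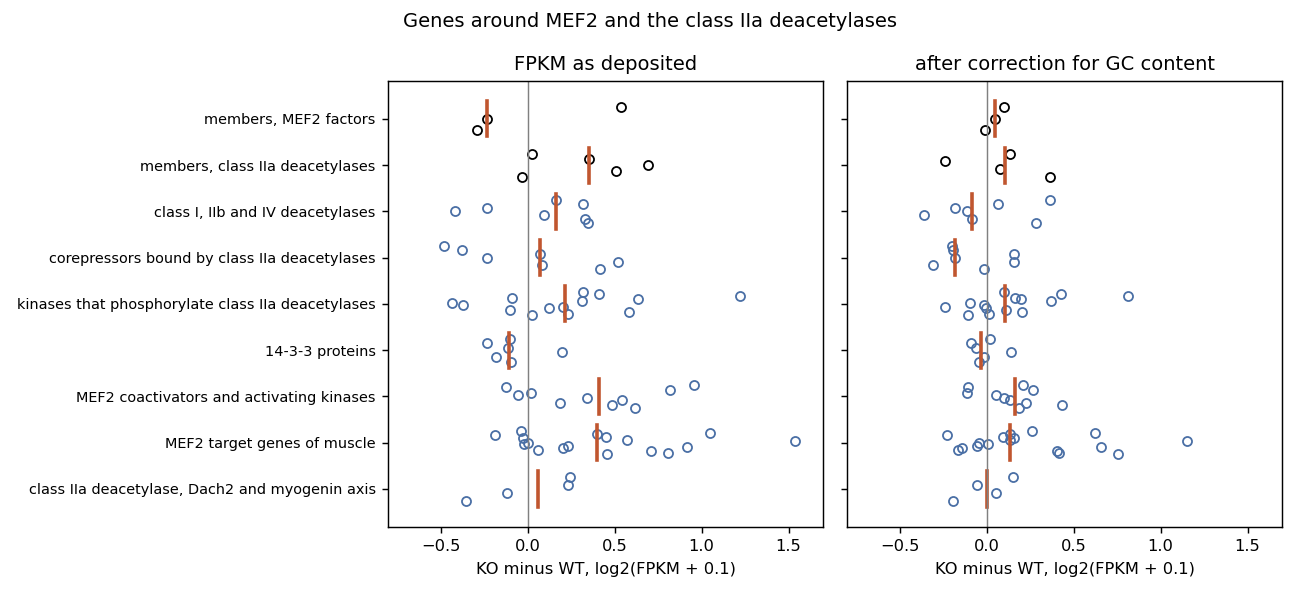
KO minus WT log2 fold change of each tested gene (circles, members in black) by list, as deposited on the left and after correction for GC content on the right, with the median of the list as an orange line. The medians range from -0.24 to 0.41 as deposited and from -0.18 to 0.16 after the correction.

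Of 10 coactivators and activating kinases of MEF2, 8 had a positive log2 fold change, and the median was 0.41 (0.16 after the correction). In this list 3 did not overlap with KO higher and 1 with KO lower, beside 18.3% and 16.2% of all tested genes. By limma 0 were called, and 5 had an unadjusted p under 0.05, beside 26.2% of all tested genes. After the correction 1 of the 10 did, beside 11.2% of all genes. *Vgll2*, a muscle cofactor of TEAD and MEF2 proteins, was at 6.98, 7.07 and 5.18 FPKM in WT mice 1, 7 and 8, against 6.74, 18.9 and 15.1 FPKM in KO mice 1, 7 and 8, so KO replicate 1 lay within the WT range and the log2 fold change of 0.96 had an adjusted p of 0.155 (0.21 after correction). *Mapk7*, the ERK5 kinase that activates MEF2, had 0.82 (adjusted p = 0.186) and 0.27 after the correction. *Ncoa2* (-0.12, adjusted p = 0.538) and *Map2k6* (-0.057, adjusted p = 0.836) had the lowest values, and the KO libraries of *Ncoa2* lay under the WT libraries. After the correction *Ncoa2* was at -0.11 and *Map2k6* at 0.057.

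Of 17 genes known as MEF2 targets in muscle, 6 were higher in all KO libraries (18.3% of all tested genes) and 0 lower in all (16.2%). By limma 0 had an adjusted and 7 an unadjusted p under 0.05 (26.2% of all tested genes). After correction for GC content 4 of the 17 had an unadjusted p under 0.05 by limma, beside 11.2% of all genes. The median log2 fold change of the list was 0.40, beside 0.01 over all tested genes. The median GC content of the list was 54.5%, and its median log2 fold change was 0.14 after the correction. *Nr4a1*, an activity-induced nuclear receptor, was at 31.3, 20.7 and 35.3 FPKM in WT mice 1, 7 and 8, against 62.3, 67.7 and 133 FPKM in KO mice 1, 7 and 8. The genotypes did not overlap, with a log2 fold change of 1.53 (SE 0.32, adjusted p = 0.0708), and of 1.15 (SE 0.33, adjusted p = 0.308) after the correction. *Xirp1*, which encodes an actin-binding protein of damaged and remodelling fibers, had 1.05 (SE 0.37, adjusted p = 0.140) with overlapping libraries, and 0.62 after the correction. *Smyd1*, a muscle methyltransferase, had -0.19 (adjusted p = 0.389) and *Xirp2* -0.04 (adjusted p = 0.842). After the correction *Smyd1* was at -0.23 and *Xirp2* at 0.26, a change of sign. Of the 6 that did not overlap, *Ckm* and *Des* are also fiber markers.

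The axis by which class IIa deacetylases repress *Dach2* and raise myogenin after denervation had 4 tested genes. By limma 0 were called (0.324% of all tested genes) and 0 had an unadjusted p under 0.05 (26.2%). Of the 4, 0 separated the genotypes, beside 18.3% of all tested genes with KO higher and 16.2% with KO lower. So few genes cannot show that the axis did not differ. *Dach2* was at 0.0722 to 0.540 FPKM in WT and 0.188 to 0.639 FPKM in KO muscle, under the filter. *Myog* was at 1.47 to 2.06 FPKM in WT and 1.16 to 3.14 FPKM in KO muscle, for a log2 fold change of 0.23 (SE 0.34, adjusted p = 0.687). *Chrna1*, the acetylcholine receptor subunit that rises in denervated muscle, had -0.35 (SE 0.28, adjusted p = 0.444). The ubiquitin ligases *Trim63* and *Fbxo32* had log2 fold changes of 0.24 (SE 0.30) and -0.12 (SE 0.34). After the correction for GC content *Myog* was at -0.055, *Chrna1* at -0.19, *Trim63* at 0.15 and *Fbxo32* at 0.054.

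The tested genes whose profile over the 6 libraries was most like that of a member were found by the root mean square difference of log2(FPKM + 0.1), each gene centred on its own mean. For *Mef2a* they were *Zmpste24* (0.027) and *Ltn1* (0.029), for *Mef2c* *Zfp68* (0.027) and *Ssr1* (0.031) and for *Mef2d* *Gtpbp5* (0.033) and *Wiz* (0.038). For *Hdac5* they were *Wbp1* (0.058) and *Tssc4* (0.062), and for *Hdac4* (ENSMUSG00000026313) *Grina* (0.047) and *Nol6* (0.051). *Hdac7* was nearest to *Tax1bp3* (0.073) and *Ebf1* (0.082), *Hdac9* to *E230013L22Rik* (0.032) and *Hsd17b4* (0.038), and ENSMUSG00000073617 to *Gm13835* (0.041) and *BC026585* (0.062). The nearest genes of *Mef2a* and *Mef2c* had GC contents of 41.5% to 46.2%, and those of *Mef2d* of 53.1% and 58.1%. Those of *Hdac5* were at 57.6% and 60.002%, and *Hsd17b4*, near *Hdac9*, was at 48.5%. For *Hdac7*, itself at 59.7%, the nearest genes were lower, at 51.4% and 45.2%. For *Hdac4* (ENSMUSG00000026313), itself at 52.6%, they were higher, at 60.4% and 55.9%. The nearest genes of ENSMUSG00000073617 were at 42.04% and 51.4%. No GC content is known for *E230013L22Rik*.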

How the data were processed

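RNA of GAS muscle from 3 WT and 3 KO mice was sequenced in stranded mRNA libraries. The authors mapped reads to GRCm38 with TopHat and deposited FPKM values from Cufflinks for 37979 entries. Tool versions, the annotation release, and whether strand was used in quantification are not given in the sources used here. Columns were assigned to genotypes by the labels. The depth was estimated from low FPKM values that fell on steps of whole fragments, within 0.15 of a fragment for 89.9% to 94.5% of them in each library.

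KO was compared with WT by limma 3.58.1 (R 4.3.3) on log2(FPKM + 0.1), with a variance trend, over the 12334 genes whose mean FPKM reached 0.5, and Benjamini-Hochberg adjustment. For the correction, a loess curve (span 0.3) of the deviations of a library from the gene means on GC content was subtracted, with GC content from GENCODE vM21, known for 97.2% of tested genes. The fit was tested on simulated data. Alternatives covered the pseudocount, filter, scaling, variance model, array weights, replicate block, GC content, length, shared symbols, zeros and each library left out.

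Members and gene lists were chosen with earlier results of these data known. Beside the members and *Mef2b*, the rule named called genes of each list, otherwise the 2 largest and 2 smallest log2 fold changes, and the 2 nearest profiles of each member. *Ncor1*, *Acta1*, *Ckm*, *Des*, *Fabp4*, *Plin1*, *Cidec*, and the untested list genes were named after their values were seen. Python 3.11.15 and matplotlib 3.10.9 made the figures. Other tissues and old mice were not analysed here. The result of 1 gene of the corepressor list is not reported here, and it was left out of the counts of that list.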

Additional observations from a re-analysis of the deposited data

How the results depend on the processing

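Over all tested genes 40 were called, and the count moved to 11 with a pseudocount of 1, 20 with no filter, 18 with quantile normalization, 19 with no variance trend, 3147 with array weights, 14 with GC correction, 1 with genes at 0 in a library left out and 11 to 38 with each library left out in turn. The labels do not say whether the replicate numbers pair mice. Same-numbered libraries had correlations of -0.025, -0.08 and 0.034 of their deviations from the genotype means. Libraries of unlike numbers had correlations of -0.066 to 0.086. Such values cannot settle whether mice were paired. With the replicate block 13 genes were called, and 12 with GC correction and the replicate block, and the block changed the call of no member. Of 155 alternative values of the members, 141 kept their direction and side of the threshold. Array weights took *Mef2a* (-0.33, adjusted p = 0.0281 by limma), *Mef2d* (0.36, 0.0403) and *Hdac5* (0.64, 0.0128) past it, while in the other alternatives no member was called. Signs turned for *Mef2c* (0.049) and *Hdac7* (-0.24) under GC correction, with or without the replicate block, for *Hdac9* under quantile normalization (-0.086), and for ENSMUSG00000073617 under array weights (0.19). With each library left out, log2 fold changes ranged from -0.082 to 0.20 for *Hdac9* and from -0.16 to 0.17 for ENSMUSG00000073617, with both signs, from 0.35 to 0.64 for *Mef2d*, 0.23 to 0.67 for *Hdac4* (ENSMUSG00000026313), 0.58 to 0.79 for *Hdac5*, 0.10 to 0.50 for *Hdac7*, -0.36 to -0.20 for *Mef2a* and -0.35 to -0.16 for *Mef2c*. The lowest values of *Mef2d* and of ENSMUSG00000026313 came without WT replicate 1. The count of 4 entries that did not overlap became 0 under GC correction. With a library left out it was 4 to 6, but removing a library cannot lower this count, so that range does not test it. The difference of the log2 ratio of class IIa to MEF2 FPKM became -0.0039 under GC correction, and 0.44 to 0.67 with a library left out. ENSMUSG00000073617 had no value under the GC and length corrections, and no *Hdac4* entry had one with shared symbols left out. Apart from what each alternative itself removes, the causes were not tested. The p-values of 3 mice a genotype and an estimated 17.4 fragments per kilobase for *Hdac9* limit what could be detected.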
